A study of Homo sapiens with 6 samples.

Results

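*ATF4* and 9 of its stress and amino acid target genes were compared between HCCLM3 cells that overexpress *PON1* (PON1-OE) and their negative control (NC). HCCLM3 is a human hepatocellular carcinoma cell line with little *PON1* of its own, and *PON1* encodes a secreted liver enzyme carried on lipoproteins. The members, *ATF4*, *DDIT3*, *TRIB3*, *ASNS*, *CHAC1*, *SESN2*, *PSAT1*, *PHGDH*, *SLC7A11* and *DDIT4*, were taken by gene symbol, 10 of the 20381 genes in the deposited table of estimated read counts. Each group had 3 libraries of poly(A) RNA. Both groups had been infected with lentivirus, carrying the *PON1* coding sequence in PON1-OE and no insert in NC, and were grown in RPMI-1640 medium. The study's methods describe puromycin-selected stable lines in medium with less serum, while the series text has 15% serum in the medium and cells lysed 24 h after they were transfected. The promoter of the vector, the number of clones in a line and the origin of the replicates (separate cultures or repeat preparations) are not given in the sources used here, so n counts libraries and p-values measure only the spread between them.

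ATF4 is the main transcription factor of the integrated stress response. When amino acids run short, the endoplasmic reticulum is stressed or heme is lacking, kinases phosphorylate the initiation factor eIF2alpha. General translation then slows, while the *ATF4* mRNA, held back by upstream reading frames, is translated more. ATF4 pairs with C/EBP family proteins on composite elements and switches on genes for amino acid supply, redox balance and, under lasting stress, cell death. Much of this control is on translation, and ATF4 protein was not measured in these libraries. In liver cancer cells the pathway is known for feeding serine, glycine, asparagine and cystine metabolism.

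A motif of composite elements was searched, and its letters are shown for the members that carried it. The motif TGATGNAA was searched on both strands of the 250 bases before each RefSeq gene start (GRCh38.p14). It was present for 2 of the 9 members that had an entry, against 3.89% of 27305 genes, and *SLC7A11* had no entry. *PHGDH* and *PSAT1* were among the members without a match. Capitals mark the motif in the 2 stretches below, each of 30 bases read 5′ to 3′ on the strand of its gene. In *ASNS* (chr7:97872458-97872487, minus strand) the motif began 68 bases before the start, and in *CHAC1* (chr15:40953251-40953280, plus strand) it lay 209 bases before the start on the opposite strand. Both stretches overlap exons that GENCODE v29 assigns to the same gene. A match describes letters only, and binding was not measured.
ASNS: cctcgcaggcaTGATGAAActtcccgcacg
CHAC1: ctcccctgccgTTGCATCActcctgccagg

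The libraries held 15706672 to 17948383 estimated counts, and edgeR's filter on low counts kept 11958 genes, all 10 members among them. Counts of *PON1* were 0, 2 and 3 for NC and 155, 181 and 167 for PON1-OE. Set against a floor of 3 counts per NC library, a count that NC replicate 3 reached, the PON1-OE mean was 60.0-fold higher. Its fitted log2FC was 6.65 (standard error 0.32, adjusted p = 2.99e-11, quasi-likelihood test of edgeR, p-values adjusted by Benjamini-Hochberg), a value that depends on the prior count. Of 14 markers of hepatoma cells 9 passed the filter. *KRT8*, *KRT18* and *HNF4A* were expressed, whereas *ALB* had 4 to 13 counts per library, *SERPINA1* 0 or 1 and *GPC3* 0 in all. Of 12 markers of leukocytes, endothelium and fibroblasts 3 passed the filter, *PTPRC* and *CD3E* were at 0 in all libraries, and the summed level of the 12 was 234.5 to 251.1 CPM (counts scaled to the library size) for NC and 252.1 to 276.7 CPM for PON1-OE. The 3 that passed were the macrophage marker *CD68* (206.1 to 247.9 CPM over all libraries, log2FC 0.13, edgeR adjusted p = 0.252), the endothelial marker *PECAM1* (216 to 249 counts, log2FC 0.21, edgeR adjusted p = 0.452, all PON1-OE libraries above all NC libraries) and the fibroblast marker *LUM* (191 to 264 counts, log2FC −0.07, edgeR adjusted p = 0.881). Of the markers that the filter removed, *VWF* had the most counts, 5 to 12 per library. The part of the 12 markers in the results was not tested. In bulk RNA, fewer cells expressing a gene and less RNA per cell cannot be told apart.

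A gene of asparagine synthesis and 2 of serine synthesis rose in PON1-OE, while *ATF4* itself and the stress regulators *DDIT3* and *TRIB3* stayed within the spread of the libraries. *ASNS* was 19.1% higher, *PHGDH* 19.2% higher and *PSAT1* 11.7% higher in mean CPM (n = 3 per group). These 3 of 10 members passed an edgeR adjusted p under 0.05, all of them higher. However, the call of *PSAT1* was lost whichever single library was left out. That of *PHGDH* was lost for every library but PON1-OE replicate 3. Over all genes tested, 0.677% passed and 0.502% passed as higher. Among the 5965 genes whose mean reached that of the lowest member, 29 CPM, 0.922% passed as higher. No member passed when a change of over 1.5-fold, the threshold of the study, was also required, and 0.0502% of all genes did. The 95% interval of every member lay inside this threshold, with the farthest bound at 0.40 for *SESN2*. The log2FC was above 0 in 8 of 10 members, against 49.0% of all genes. The median log2FC of the members was 0.12, against −0.0025 over all genes. The members were chosen with earlier results of these data known. Setting them beside all genes, here and below, is therefore descriptive and no test.

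**Figure D1:**
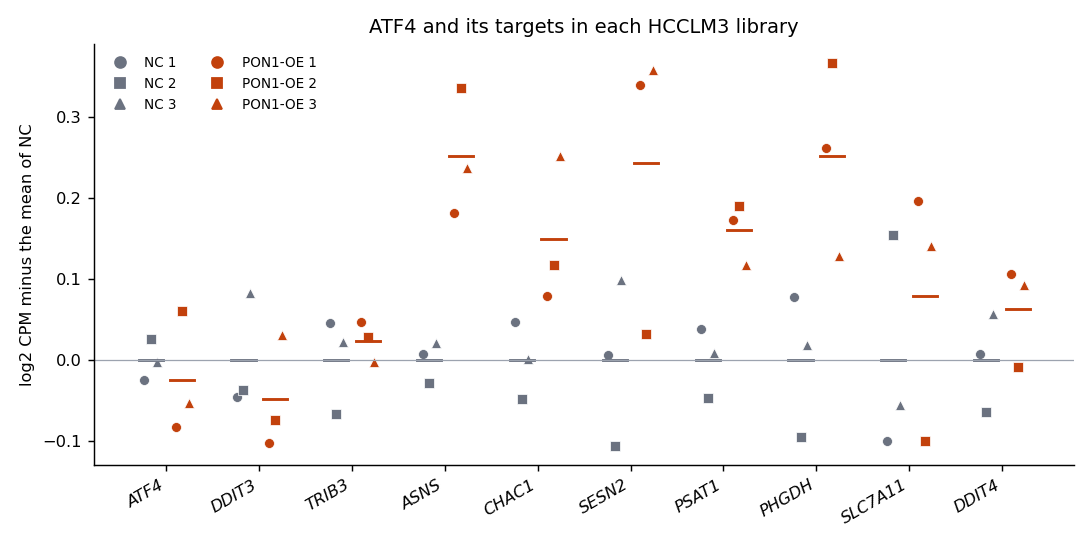
Level of each gene in each library, as log2 CPM minus the mean of the 3 NC libraries (vertical axis), with genes on the horizontal axis; points are libraries, coloured by group and shaped by replicate number, and bars are group means. All PON1-OE points lie above all NC points for *ASNS*, *CHAC1*, *PSAT1* and *PHGDH*, and PON1-OE replicate 2 is apart from the other two for *SESN2* and *SLC7A11*.

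Of the regulators, *ATF4* (ENSG00000128272, GRCh38 chr22:39519695-39522685, plus strand, by GENCODE v29) had 521.3, 539.8 and 529.4 CPM in NC replicates 1 to 3, and PON1-OE replicates 1 to 3 had 500.5, 552.8 and 511.1 CPM. The groups overlapped, with PON1-OE replicates holding both the highest and the lowest value. Its log2FC was −0.02 (95% interval −0.10 to 0.06, edgeR adjusted p = 0.877).

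*DDIT3* encodes CHOP, a transcription factor of the same family that takes stressed cells toward apoptosis. It had 89.5, 90.05 and 97.9 CPM in the NC libraries, against 86.1, 87.8 and 94.4 CPM with PON1-OE. The groups overlapped, and the log2FC was −0.05 (95% interval −0.16 to 0.06, edgeR adjusted p = 0.809). On chromosome 12 its exons share 355 bases with *MARS1* and 58 bases with *MBD6* on the opposite strand, and 105 bases with a gene on its own strand that had 0 counts in every library. Its estimated counts were not whole in 5 of 6 libraries, while those of the other 9 members were whole in every library.

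*TRIB3* encodes a pseudokinase that ATF4 induces and that holds back ATF4 and AKT in return. It had 700.2, 648.1 and 689.0 CPM in the NC libraries, against 701.0, 692.0 and 677.4 CPM with PON1-OE. Of the NC libraries, replicate 2 was below the PON1-OE range and the other two were inside it. The log2FC was 0.02 (95% interval −0.05 to 0.10, edgeR adjusted p = 0.867).

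The biosynthetic enzymes came next, and they held the 3 members that passed. *ASNS* (chr7:97852118-97872542, minus strand) makes asparagine from aspartate and glutamine, and its upstream motif is printed above. It had 371.8, 362.9 and 375.3 CPM in the NC libraries, against 419.4, 466.8 and 436.0 CPM with PON1-OE. The groups were well apart, with PON1-OE replicate 2 highest of all. The means were 370.0 ± 6.41 and 440.7 ± 24.0 CPM (SD, n = 3 each). The log2FC was 0.25 (standard error 0.039, edgeR adjusted p = 0.00380). By its p-value *ASNS* stood at rank 8 of the 11958 genes tested.

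*PHGDH* (chr1:119648411-119744226, plus strand) catalyses the first step from glycolysis into serine. It had 148.2, 131.5 and 142.3 CPM in the NC libraries, against 168.4, 181.2 and 153.6 CPM with PON1-OE. The groups did not overlap, although PON1-OE replicate 3 came close to NC replicate 1. The means were 140.7 ± 8.48 and 167.7 ± 13.8 CPM (SD, n = 3 each), with a log2FC of 0.25 (standard error 0.055, edgeR adjusted p = 0.0325).

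*PSAT1* (chr9:78297143-78330093, plus strand) carries out the second step, the transamination to phosphoserine. It had 496.6, 468.2 and 486.4 CPM in the NC libraries, against 545.3, 551.5 and 524.6 CPM with PON1-OE. Again all PON1-OE libraries were above all NC libraries, and the spread was small in both groups. The means were 483.7 ± 14.4 and 540.4 ± 14.1 CPM (SD, n = 3 each), with a log2FC of 0.16 (standard error 0.035, edgeR adjusted p = 0.0380). *PSPH*, which releases serine in the third step, had 80.7, 77.9 and 81.3 CPM in the NC libraries, against 81.7, 90.5 and 79.6 CPM with PON1-OE, and these ranges overlapped.

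*SESN2* encodes sestrin 2, a leucine sensor that lowers mTORC1 activity. It had 82.2, 76.0 and 87.6 CPM in the NC libraries, against 103.5, 83.6 and 104.8 CPM with PON1-OE. PON1-OE replicates 1 and 3 were above all NC libraries, but PON1-OE replicate 2 lay within the NC range. The log2FC of 0.25 was close to that of *ASNS*, with a wider error (standard error 0.070, unadjusted p = 0.00197, edgeR adjusted p = 0.140).

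*CHAC1* encodes an enzyme that degrades glutathione. It was the member with the lowest counts, 469, 481 and 469 for NC and 477, 477 and 513 for PON1-OE. Scaled, the NC libraries were at 28.4, 26.6 and 27.5 CPM and those of PON1-OE at 29.04, 29.8 and 32.8 CPM, without overlap. The log2FC was 0.15 (95% interval −0.0029 to 0.31, unadjusted p = 0.0540, edgeR adjusted p = 0.458).

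*SLC7A11*, the cystine importer, is a target of both ATF4 and NRF2. It had 178.3, 212.7 and 183.9 CPM in the NC libraries, against 218.8, 178.3 and 210.6 CPM with PON1-OE. One library of each group departed from its fellows, NC replicate 2 upward and PON1-OE replicate 2 downward, and the groups overlapped. The log2FC was 0.08 (95% interval −0.06 to 0.21, edgeR adjusted p = 0.714).

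*DDIT4* encodes REDD1, an inhibitor of mTORC1 that also answers to hypoxia and glucocorticoids. It had 221.5, 210.6 and 229.1 CPM in the NC libraries, against 237.1, 218.9 and 234.7 CPM with PON1-OE, with PON1-OE replicate 2 inside the NC range. The log2FC was 0.06 (95% interval −0.03 to 0.15, edgeR adjusted p = 0.633).

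**Figure D2:**
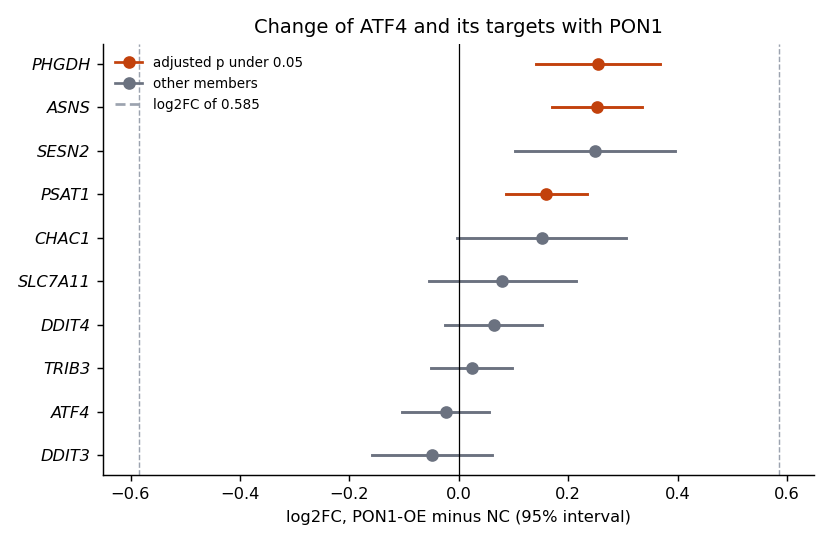
Log2FC of PON1-OE minus NC for the 10 members (horizontal axis), with 95% intervals from edgeR's quasi-likelihood fit; genes are ordered by log2FC on the vertical axis. The intervals of *PHGDH*, *ASNS*, *SESN2* and *PSAT1* lie above 0, all of these but *SESN2* pass an adjusted p under 0.05, and no interval reaches the dashed lines, which mark a 1.5-fold change.

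At an unadjusted p under 0.05, 4 of 10 members were higher and 0 lower. Over all genes this threshold was passed by 11.1%, 5.91% as higher and 5.17% as lower, and by 7.88% as higher among the genes with a mean of at least 29 CPM. All PON1-OE libraries were above all NC libraries in 4 members and below in 0, against 8.32% and 7.74% of all genes. With 3 libraries against 3 the two-sided exact permutation test cannot go below p = 0.1, the value for *ASNS*, *CHAC1*, *PSAT1* and *PHGDH*. For *SESN2* the same exact permutation test gave p = 0.2.

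Compared per length, as CPM per kilobase of the principal GENCODE v29 transcript in NC, *TRIB3* (271.7 ± 10.99) and *ATF4* (262.6 ± 4.59) were the most abundant members, and their libraries overlapped. They were followed by *PSAT1* (221.1 ± 6.56), *ASNS* (157.0 ± 2.72), *DDIT4* (126.1 ± 5.30), *DDIT3* (98.4 ± 4.98) and *PHGDH* (54.4 ± 3.28), whose NC libraries did not overlap between neighbours. *SESN2* (23.7 ± 1.68) and *SLC7A11* (19.9 ± 1.91) overlapped, and *CHAC1* (17.6 ± 0.581, SD, n = 3 for each gene) was lowest. So the members that passed were neither the most nor the least abundant.

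The members did not follow one order across libraries. Within PON1-OE, replicate 2 was the highest for *ATF4*, *ASNS*, *PSAT1* and *PHGDH* and the lowest for *SESN2*, *SLC7A11* and *DDIT4*. Replicate 1 was the lowest for *ATF4*, *DDIT3*, *ASNS* and *CHAC1*. Within NC, replicate 2 was the lowest for 7 of 10 members, all but *ATF4*, *DDIT3* and *SLC7A11*. This library also had the largest total count, and the part of depth in its position was not tested. The summed level of the 10 members was 2838, 2766 and 2848 CPM for NC replicates 1 to 3 and 3009, 3043 and 2980 CPM for PON1-OE.

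Of the 3 calls, that of *ASNS* did not depend on any one library. Its adjusted p was 0.00128 to 0.0251 when each library was left out in turn, and its log2FC 0.21 to 0.29. *PSAT1* lost the adjusted threshold without any single library, with an adjusted p of 0.0531 (without PON1-OE replicate 2) to 0.199 (without NC replicate 3). *PHGDH* lost it when NC replicate 1 (0.0507), 2 (0.09997) or 3 (0.167) was left out, likewise for PON1-OE replicate 1 (0.0751) or 2 (0.0927), and kept it when PON1-OE replicate 3 was left out (0.0190, all from edgeR). Both kept their direction throughout, at a log2FC of 0.20 to 0.32 for *PHGDH* and 0.14 to 0.18 for *PSAT1*. *SESN2* passed without PON1-OE replicate 2, at a log2FC of 0.35 and an edgeR adjusted p of 0.00469. The count of members that passed was thus 2 when PON1-OE replicate 2 or 3 was left out and 1 for each of the other libraries.

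**Figure D3:**
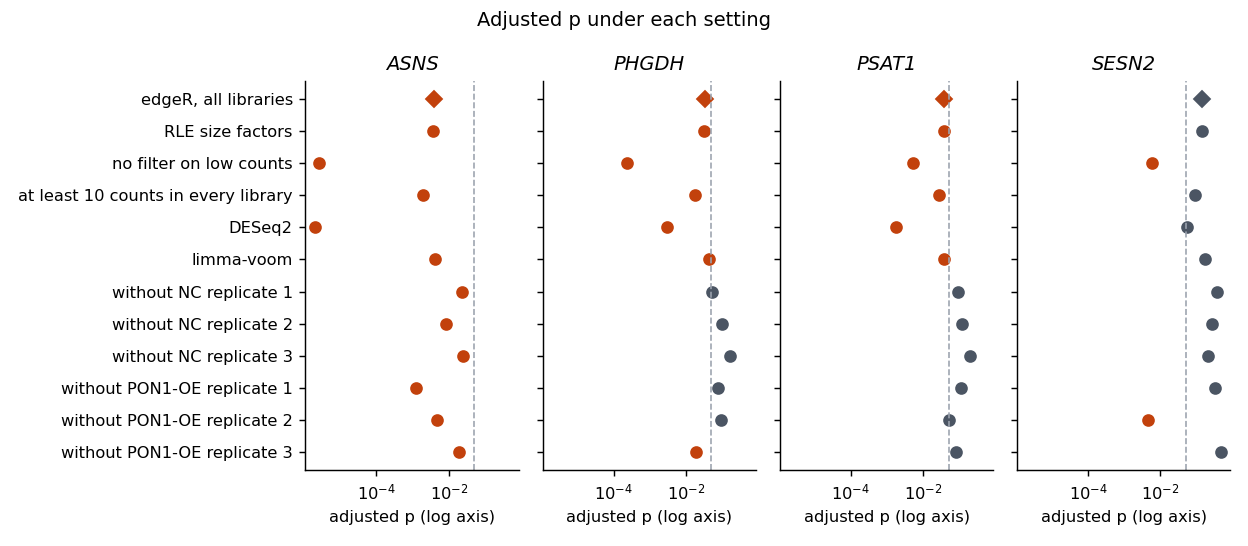
Adjusted p of 4 members (log axis) under the settings on the vertical axis, with diamonds for edgeR on all 6 libraries and a dashed line at 0.05. The setting with the replicate block, in which only *ASNS* of the 4 passed, is not plotted. *ASNS* stays below the line in every setting shown, *PHGDH* and *PSAT1* lie on both sides of it, and *SESN2* is below it without the filter on low counts (0.00596) and without PON1-OE replicate 2 (0.00469).

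The rest of the pathway was described with 7 lists that share no gene with the members. Of their 124 genes 116 were tested, of which 2 passed an adjusted p under 0.05, both higher. Over all genes 0.677% passed, and 0.502% passed as higher. At an unadjusted p under 0.05, 20 were higher and 2 lower, against 5.91% and 5.17% of all genes. The median log2FC of the 116 was 0.04, with 82 above 0 and 34 below, against 49.0% of all genes above 0. The lists too were chosen with earlier results of these data known, so these counts are also descriptive.

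Upstream of ATF4, the list of eIF2alpha kinases and their regulators, eIF2 and eIF2B subunits, *EIF2A* and phosphatase subunits (19 of 19 tested) had 0 genes past the adjusted threshold and a median log2FC of 0.0020. The lowest p-values belonged to the eIF2alpha phosphatase subunits *PPP1R15B*, the constitutive one (log2FC −0.11, edgeR adjusted p = 0.385), and *PPP1R15A*, or GADD34, itself induced by ATF4 (log2FC 0.07, edgeR adjusted p = 0.403). *PPP1R15A* had in NC a mean of 1754 ± 60.7 CPM, against 1844 ± 15.2 CPM in PON1-OE (SD, n = 3 each). The partner and related transcription factors (14 of 14 tested) also had 0 genes past the adjusted threshold. *FOS*, an AP-1 subunit, had a log2FC of 0.40 at about 3 CPM (edgeR adjusted p = 0.504), and *CEBPB*, a dimer partner of ATF4, a log2FC of 0.06 (edgeR adjusted p = 0.556).

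Among amino acid and one-carbon enzymes, 14 of 16 were tested. The filter removed *MTHFD2* (0 counts in every library) and *PYCR1* (0 to 4 counts). Of the 14 tested, 11 were above 0 (49.0% of all genes were) and 1 passed as higher (0.502% of all genes did). This was *CTH*, which forms cysteine from cystathionine. Its levels were 48.9, 46.05 and 49.0 CPM in the NC libraries, against 55.4, 61.5 and 57.6 CPM with PON1-OE, without overlap. Its log2FC was 0.28 (standard error 0.060, edgeR adjusted p = 0.0368). *CTH* kept the threshold when PON1-OE replicate 1 was left out and lost it for each of the other 5 libraries, with an edgeR adjusted p of up to 0.158. *GOT1*, the cytosolic aspartate aminotransferase, had a log2FC of 0.17 (edgeR adjusted p = 0.215). Amino acid transporters (11 of 14 tested) had 0 genes past the threshold. *SLC36A4*, an amino acid transporter, had the lowest log2FC of the 116 genes tested, −0.33 (edgeR adjusted p = 0.176), and the neutral amino acid transporter *SLC1A4* had 0.12 (edgeR adjusted p = 0.247).

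Of the stress effectors, secreted factors and feedback genes, 17 of 20 were tested. Above 0 were 13, against 49.0% of all genes, and 1 passed as higher, against 0.502% of all genes. *NDRG1*, a stress gene also induced by hypoxia, had 496.3, 503.8 and 494.4 CPM in the NC libraries, against 639.1, 580.1 and 639.8 CPM with PON1-OE. The groups lay far apart relative to their spread, with PON1-OE replicate 2 again below the other PON1-OE libraries. Its log2FC was 0.31 (standard error 0.038, edgeR adjusted p = 1.83e-04), and it passed without each library in turn. *TXNIP*, an inhibitor of thioredoxin and of glucose uptake, had a log2FC of 0.45 at low counts (edgeR adjusted p = 0.243).

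The cytosolic aminoacyl-tRNA synthetases with the tRNA exporter *XPOT* (21 of 21 tested), which charge tRNAs and include many ATF4 targets, had 18 log2FC values above 0 and 3 below, against 49.0% of all genes above 0. Their median was 0.06, 5 had an unadjusted p under 0.05 (11.1% of all genes did) and 0 passed the adjusted threshold. *AARS1*, for alanine, came closest (log2FC 0.13, edgeR adjusted p = 0.0833) and passed with DESeq2 (adjusted p = 0.00632) and without the filter on low counts (edgeR adjusted p = 0.0378), while the adjusted p over its other alternatives was 0.0655 to 0.305. It was followed by *GARS1*, for glycine (log2FC 0.10, edgeR adjusted p = 0.263). The chaperones and folding enzymes of the endoplasmic reticulum, which the ATF6 and XBP1 arms control, had 20 of 20 tested and 0 past the threshold, with log2FC values between −0.09 and 0.11. The lowest p-values were those of *HYOU1*, a chaperone of the lumen (log2FC 0.10, edgeR adjusted p = 0.237), and *XBP1* (log2FC 0.09, edgeR adjusted p = 0.302).

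**Figure D4:**
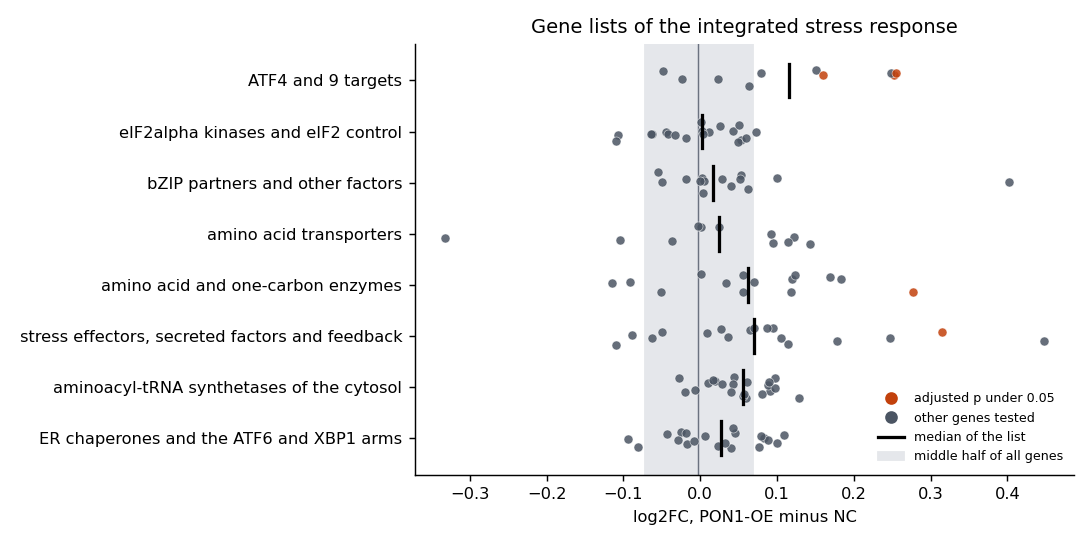
Log2FC of PON1-OE minus NC (horizontal axis) for the tested genes of each list (vertical axis), with ticks at list medians and a grey band over the interquartile range of all genes tested. Of the 8 lists plotted, the members have the highest median, 0.12, and the orange points are *ASNS*, *PHGDH*, *PSAT1*, *CTH* and *NDRG1*.

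Some of these counts depend on how reads were assigned. In GENCODE v29, *ATF4*, *ASNS* and *PSAT1* have 4 pseudogenes each by name, none of them in the count table, and 1985 exonic bases of *ASNS* belong also to a processed transcript on the same strand that the table does not list. *SLC7A11* and *DDIT4* share 865 and 847 exonic bases with antisense genes. *DDIT3* shares 355 with *MARS1* and 58 with *MBD6*, also on the opposite strand. The library kit named in the labels does not mark strand, so reads of the 2 strands cannot be told apart at these bases. In NC, *MARS1* had a mean of 462.8 CPM, against 92.5 CPM for *DDIT3*. How far such reads entered the counts of *DDIT3* was not tested. *PHGDH*, *TRIB3*, *CHAC1* and *SESN2* share no exonic base with another gene.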

How the data were processed

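The authors deposited 1 table of estimated counts per gene for 6 libraries of poly(A) RNA, without normalization. The submitters' processing notes list Bowtie2 2.2.8, HISAT2, StringTie 1.3.1 and DESeq2 without roles, and genome build, annotation and counting tool are not given in the sources used here. Columns were assigned by library name. Of all values 10.5% were not whole and were rounded, since the planned test was written for whole counts. In R 4.3.3, filterByExpr and TMM were followed by glmQLFit and glmQLFTest of edgeR 4.0.16, PON1-OE against NC without covariates, with Benjamini-Hochberg adjustment over 11958 genes. CPM are TMM-scaled. The fit was tested on simulated counts. Standard errors are |log2FC| divided by the root of F. Exact permutation tests were two-sided, on log2(CPM + 1). A floor of 3 counts equals 0.166 to 0.192 CPM and allows for no variation beyond counting error. For *PON1*, with 3 counts in NC replicate 3, it is a reference value and no upper limit. Libraries of a group differed by more than sampling noise (chi-square per degree of freedom 2.11 to 4.11). Of the 20381 identifiers, 20126 matched GENCODE v29, used for positions and transcript lengths. Alternatives were RLE factors, a replicate block, no filter on counts or a minimum of 10 per library, leaving out each library, DESeq2 1.42.0, limma-voom (limma 3.58.1) and the fold threshold. The members and lists were chosen with earlier results of these data known. Named genes are the members, *PON1*, and in each list the genes past the adjusted threshold and the 2 with the lowest p. *PSPH*, *MARS1*, *MTHFD2*, *PYCR1* and the marker genes named were added after their values were seen.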

Additional observations from a re-analysis of the deposited data

How the results depend on the processing

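Directions held in all alternatives for 8 of the 10 members. *ATF4* changed sign to 0.0078 without PON1-OE replicate 1, and *TRIB3* to −0.0061 without NC replicate 2, neither past a threshold; with single libraries left out their log2FC ranged from −0.067 to 0.0078 and from −0.0061 to 0.046. The count of members past an adjusted p under 0.05, 3 with all libraries, stayed at 3 with RLE factors, a minimum of 10 counts per library, DESeq2 and limma-voom, was 4 without the filter, 1 with the replicate block, 1 to 2 with single libraries left out and 0 with the fold threshold. Over the 7 lists the count of 2 became 3 without the filter and with DESeq2 (*AARS1* added in both), 1 with the replicate block and 1 to 2 with single libraries left out. Over all genes the count was 81 of 11958 tested and became 177 of 15542 without the filter. It was 40 with the replicate block and 6 with the fold threshold. With single libraries left out it ran from 11 (without NC replicate 3) to 104 (without PON1-OE replicate 2). Why these counts moved was not tested. Replicate numbers are used here only to name the libraries. Deviations of same-numbered libraries correlated at −0.02 to 0.02, and those of other pairs at −0.09 to 0.07. With 3 libraries per group this cannot show whether same-numbered libraries shared a culture or preparation. With the replicate block, *ASNS* had an edgeR adjusted p of 0.0162, *PHGDH* 0.0689 and *PSAT1* 0.105. The fitted log2FC of *PON1* was 6.13 to 7.33 with single libraries left out, DESeq2 gave it no adjusted p, and the filter of at least 10 counts removed it. At these depths a member's 95% interval spanned from 0.15 (*TRIB3* and *PSAT1*) to 0.31 (*CHAC1*) on the log2 scale.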
